A study of Mus musculus with 9 samples.

Results

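The genes that encode the proteins of the cytosolic ribosome (ribosomal protein genes, RP genes) were examined in pancreatic islets of mice that lack *Raptor* in beta cells. A gene counted as an RP gene when its symbol was Rpl or Rps followed by a number, *Rpsa*, or *Rplp0*, *Rplp1* or *Rplp2*; S6 kinase genes and pseudogenes were left out. This rule uses gene symbols and no measured values, but the RP genes were chosen as a subject with earlier results of these data known. On the array, 50 RP genes had a probe set that names only that gene, out of 18193 such genes in all, and 47 of them passed the filter on dim genes, out of 13644 genes tested. The 47 are 20 genes of the small subunit, 20 of the large subunit, 2 of the stalk, and 5 paralogs or related genes that the naming rule also takes in. A further 31 RP genes, *Rpl26* and *Rplp1* among them, are named only on probe sets shared with other genes and were examined as probe sets, not by name.

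A cytosolic ribosome joins a small subunit, which decodes the mRNA, to a large subunit, which forms the peptide bond. Each subunit holds ribosomal RNA and a fixed set of proteins. Beta cells translate large amounts of preproinsulin and depend on this machinery. The kinase complex mTORC1, of which Raptor is the defining subunit, promotes the making of ribosomes. It raises the transcription of ribosomal RNA genes, and it controls the translation of mRNAs that begin with a terminal oligopyrimidine (TOP) tract, a C at the first base followed by a run of C and T. Nearly all RP mRNAs are TOP mRNAs. The TOP control acts on how well an mRNA is loaded onto ribosomes, a step that an array of total RNA does not measure, so the values here are mRNA levels and say nothing of RP protein or of translation.

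Islet RNA of 8-week-old male mice was hybridised to 9 Affymetrix Mouse Genome 430 2.0 arrays, 4 from KO and 5 from WT islets. KO (βRapKO) mice carried RIP-Cre and Raptor flox/flox, and WT mice were littermates with Raptor flox/flox and no Cre, so both groups carried the floxed alleles and the Cre transgene was present only in KO mice. RIP-Cre is driven by the rat insulin promoter, and the alpha, delta, stromal and other cells of an islet are not its targets. The floxed line was on C57BL/6J, and the background of the Cre line mixed C57BL/6J with another strain. Each array held RNA pooled from 5 animals of 1 genotype, so the spread between arrays is one between pools. Arrays are named by group and replicate (KO 1 to KO 4, WT 1 to WT 5), and values are listed in that order.

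The signals are on a log2 scale, on which a difference of 1 is a 2-fold change. Each array had been scaled to a common level, so a value is relative to the rest of the RNA on that array. *Rptor*, the gene that encodes Raptor, had log2 signals of 8.59, 8.48, 9.21 and 8.73 in KO islets, against 9.53, 9.59, 9.71, 9.22 and 9.30 in WT islets (log2 difference -0.72, SE 0.17, limma adjusted p = 0.041). All KO arrays lay below all WT arrays. The adjusted p was under 0.05 without KO 3 or without WT 4 and between 0.051 and 0.11 when any of the other 7 arrays was left out. Where the probe set lies relative to the deleted part of the gene was not examined here. The labelled tissue was borne out by the beta cell markers, whose mean log2 signal was 13.23 to 13.42 in KO and 13.84 to 14.02 in WT islets (8 of 10 listed markers tested). Markers of stromal cells were higher in KO islets for 17 of 18 genes, 11 of them past the adjusted threshold, with a mean of 9.67 to 10.2 in KO and 8.42 to 9.30 in WT islets. Acinar markers varied widely within both groups, between 8.83 and 13.0 in KO and between 9.13 and 12.8 in WT islets. In whole islets, fewer cells of a type and less RNA per cell cannot be told apart.

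The TOP tract is the feature that ties RP mRNAs to mTORC1, so the annotated start sites were read for it. RefSeq start-site sequences (GRCm38.p6) were matched for 41 of the 47 genes tested. The tract was searched on the gene's own strand only, as a C at the annotated first base followed by at least 4 bases that are C or T. It was found in 8 of the 41 RP genes (19.5%) and in 3.01% of all 27025 genes of the table. A looser search, for 8 or more C or T in a row within 25 bases on either side of the start, found 22 of the 41 (53.7%), against 22.3% of all genes. An annotated start that is a few bases away from the one in use hides the tract from the first search, so the 33 genes without it are not shown to lack a TOP. Windows of 30 bases, 15 before the start base and 15 from it on, are given for 4 genes with the tract in capitals (*Rps6*, the S6 kinase substrate; *Rplp2*, a stalk gene; *Rps18* and *Rpl35*, a gene of each subunit) and for *Rps2*, the RP gene with the lowest p, which has no tract at its annotated start. The windows lie at chr4:86857353-86857382 (minus strand) for *Rps6*, at chr7:141447636-141447665 (plus strand) for *Rplp2*, at chr17:33955651-33955680 (minus strand) for *Rps18*, at chr2:39005117-39005146 (minus strand) for *Rpl35* and at chr17:24720048-24720077 (plus strand) for *Rps2*.
Rps6: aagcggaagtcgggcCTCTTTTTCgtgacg
Rplp2: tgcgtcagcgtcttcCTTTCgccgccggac
Rps18: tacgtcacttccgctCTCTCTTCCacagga
Rpl35: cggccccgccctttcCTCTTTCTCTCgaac
Rps2: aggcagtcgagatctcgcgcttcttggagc

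RP mRNA levels differed little between KO and WT islets, and most of the small differences were positive. Over the 47 RP genes, the median log2 difference (KO minus WT) was 0.14, a 1.10-fold higher level in KO islets, beside 0.040 for all genes tested. The quartiles were 0.052 and 0.22, and the differences ran between -0.69 for *Rpl39* and 0.57 for *Rps2*. In all, 42 of the 47 differences were positive, against 56.2% of all genes tested. The median stayed positive under the other scalings of the arrays, between 0.10 and 0.18, while the sign of 7 genes near 0 changed under at least 1 of them. At an adjusted p under 0.05 (limma, Benjamini-Hochberg over all genes tested), 1 RP gene was higher, *Rps2*, and 0 were lower, where the background was 3.67% of genes higher and 2.63% lower (501 and 359 genes; 214 and 260 with each array centred on its median). At an unadjusted p under 0.05, 7 RP genes were higher and 1 was lower (background 13.3% and 8.43%). With the main settings, the share of RP genes past either limma threshold was thus near or below that of all genes. The unadjusted count depended on the scaling of the arrays. It was 1 higher and 0 lower with median centring, 10 and 1 with quantile normalization, and 23 and 1 with cyclic loess. The unadjusted shares of all genes under these scalings are not given here. No RP gene reached both an unadjusted p under 0.05 and 1.5-fold, in either direction (background 6.38% higher and 2.81% lower). The methods' t-test called 1 RP gene higher and 0 lower after adjustment (background 2.65% and 2.6%), and at its own unadjusted threshold 11 higher (23.4% of the 47) and 1 lower (background 12.7% and 8.9%).

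**Figure D1:**
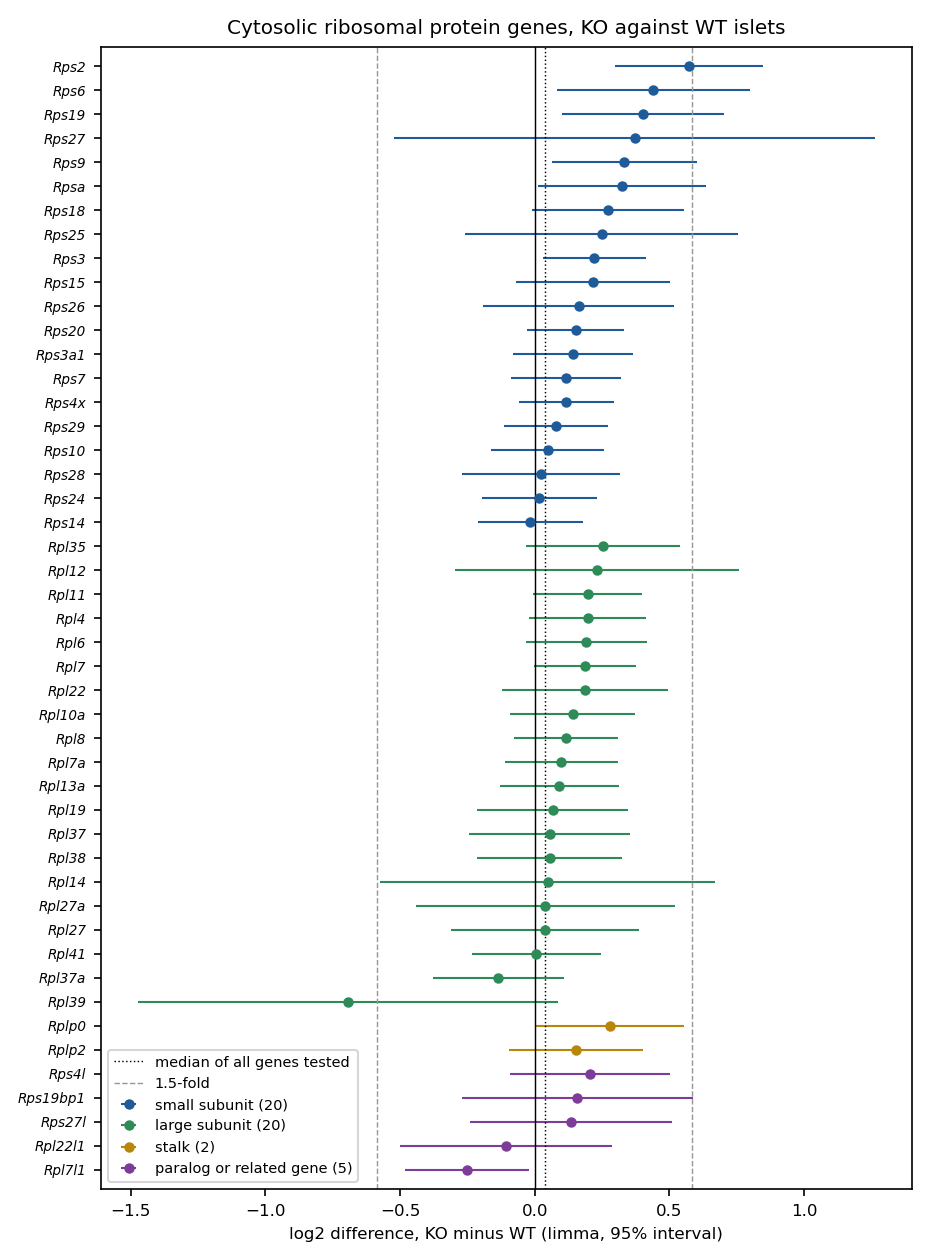
Log2 difference (KO minus WT, x axis) of each of the 47 RP genes tested, grouped by role and ordered by size, with the 95% interval of limma as a bar. Most points lie between 0 and 0.3, and the lower end of the interval passes the dashed 1.5-fold line on the left for 1 gene, *Rpl39*.

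The intervals show what size of change the arrays could have missed. For 46 of the 47 RP genes the unadjusted 95% interval ended above a 1.5-fold lower level in KO islets, *Rpl39* being the exception, and for 37 it ended below a 1.5-fold higher level. Over all genes tested, the first held for 10339 of 13644 and the second for 9083. The 1.5-fold bound is one on the array's scale. RP mRNAs are among the most abundant of the cell, 19 of the 47 had a mean log2 signal of at least 14, and such bright signals can be compressed. These 19 had a median difference of 0.092, and the 28 dimmer RP genes 0.19. Split at a mean of 12 instead, the medians were closer, 0.14 for the 36 brighter and 0.16 for the 11 dimmer RP genes. The 79 genes of any kind with a mean of at least 14 had a median of -0.018.

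The small subunit held the RP genes with the largest positive differences. Of its 20 genes, 19 had a positive difference, with a median of 0.19. *Rps2* encodes a protein near the mRNA entry site of the small subunit. Its log2 signal was 13.30, 13.68, 13.77 and 13.63 in KO islets, against 12.94, 13.24, 13.02, 12.86 and 13.06 in WT islets. Every KO array lay above every WT array, the nearest being KO 1 and WT 2, and the means were 13.60 ± 0.21 in KO and 13.02 ± 0.14 in WT islets (SD, n = 4 and 5). The log2 difference was 0.57 (SE 0.12, limma adjusted p = 0.029). Only 1 probe set names *Rps2* alone, of a type that can also bind similar sequences, and the call rested on it. The adjusted p was above 0.05 without KO 2, KO 3, KO 4, WT 1, WT 3 or WT 4, lying between 0.052 and 0.080, while the difference stayed between 0.51 and 0.57. Over all 19 alternatives that could be run for *Rps2*, the difference was positive and the call held in 9.

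*Rps6* encodes the ribosomal protein that S6 kinase phosphorylates downstream of mTORC1. Its log2 signal was 11.16, 10.98, 10.96 and 11.43 in KO islets, against 10.81, 10.39, 11.05, 10.50 and 10.72 in WT islets. WT 3 lay above 2 of the KO arrays, and the difference of 0.44 (SE 0.16) did not pass the test (limma adjusted p = 0.14). *Rps19*, the gene most often mutated in Diamond-Blackfan anaemia, had 13.56, 13.07, 13.12 and 13.48 in KO islets, against 12.77, 12.78, 12.93, 12.93 and 13.12 in WT islets. The 2 groups overlapped only at WT 5, which lay above KO 2. The difference was 0.40 (SE 0.13, limma adjusted p = 0.11).

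*Rps3*, whose product sits at the mRNA entry channel and also acts in DNA repair, was the other RP gene whose KO arrays all lay above the WT arrays. It had 13.92, 13.78, 13.69 and 13.87 in KO islets, against 13.48, 13.56, 13.68, 13.57 and 13.67 in WT islets. KO 3 and WT 3 lay nearest to each other, and the difference of 0.22 (SE 0.085) did not pass the test (limma adjusted p = 0.17). With *Rps2*, 2 of the 47 RP genes thus had all KO above all WT arrays, against 7.43% of all genes tested, and 0 had all KO below all WT arrays, against 5.05%. *Rpsa*, the small subunit protein also known as the laminin receptor precursor, had 14.04, 13.66, 13.64 and 13.98 in KO islets, against 13.35, 13.28, 13.60, 13.50 and 13.79 in WT islets. Its groups overlapped at WT 5, and the difference was 0.32 (SE 0.14, limma adjusted p = 0.21). The RP genes with an unadjusted p under 0.05 in the higher direction were *Rps2*, *Rps3*, *Rps6*, *Rps9*, *Rps19* and *Rpsa* of the small subunit and *Rplp0* of the stalk. *Rps14* alone of the small subunit had a negative value, -0.016, and its sign changed under another scaling of the arrays.

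The large subunit lay closer to 0, with a median difference of 0.095, and 18 of its 20 genes were positive. None passed the adjusted test, 0 had an unadjusted p under 0.05 in limma, and the difference between the subunits was not tested. *Rpl7* encodes a protein that the study blotted and reported as less abundant in KO islets. The array reads its mRNA and not that protein. The log2 signal of *Rpl7* was 14.31, 14.10, 14.13 and 14.28 in KO islets, against 13.94, 13.96, 14.06, 14.02 and 14.12 in WT islets. Only WT 5 reached into the KO range. The difference was 0.19 (SE 0.083, limma adjusted p = 0.24), and the other 2 probe sets that name *Rpl7* alone gave 0.28 and 0.17 in a fit over probe sets. *Rpl35* had the largest positive difference of the subunit, 0.25 (SE 0.13, limma adjusted p = 0.28).

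*Rpl39* encodes a very short protein of the peptide exit tunnel and had the lowest difference of all RP genes. Its log2 signal was 7.50, 6.55, 8.00 and 7.40 in KO islets, against 7.15, 8.48, 8.14, 8.51 and 7.98 in WT islets. The groups overlapped, with WT 1 below 3 of the KO arrays. This probe set is the dimmest of the 47, and the difference of -0.69 had an SE of 0.35 (limma adjusted p = 0.29). Its mean log2 signal was 7.75, where 19 RP genes had at least 14, and how well it reads the level of *Rpl39* was not examined. *Rpl37a* was the other large subunit gene with a negative difference, -0.13 (SE 0.11, limma adjusted p = 0.52), and the other 2 probe sets that name it alone gave 0.023 and 0.0091.

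The stalk of the large subunit, where translation factors bind, was represented by 2 genes. *Rplp0*, its base, had 14.63, 14.49, 14.34 and 14.53 in KO islets, against 14.26, 14.27, 14.07, 14.51 and 13.99 in WT islets. WT 4 lay among the KO arrays and the other 4 below them (log2 difference 0.28, SE 0.12, limma adjusted p = 0.23). *Rplp2*, which pairs with *Rplp1* on that base, had a difference of 0.15 (SE 0.11, limma adjusted p = 0.47).

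**Figure D2:**
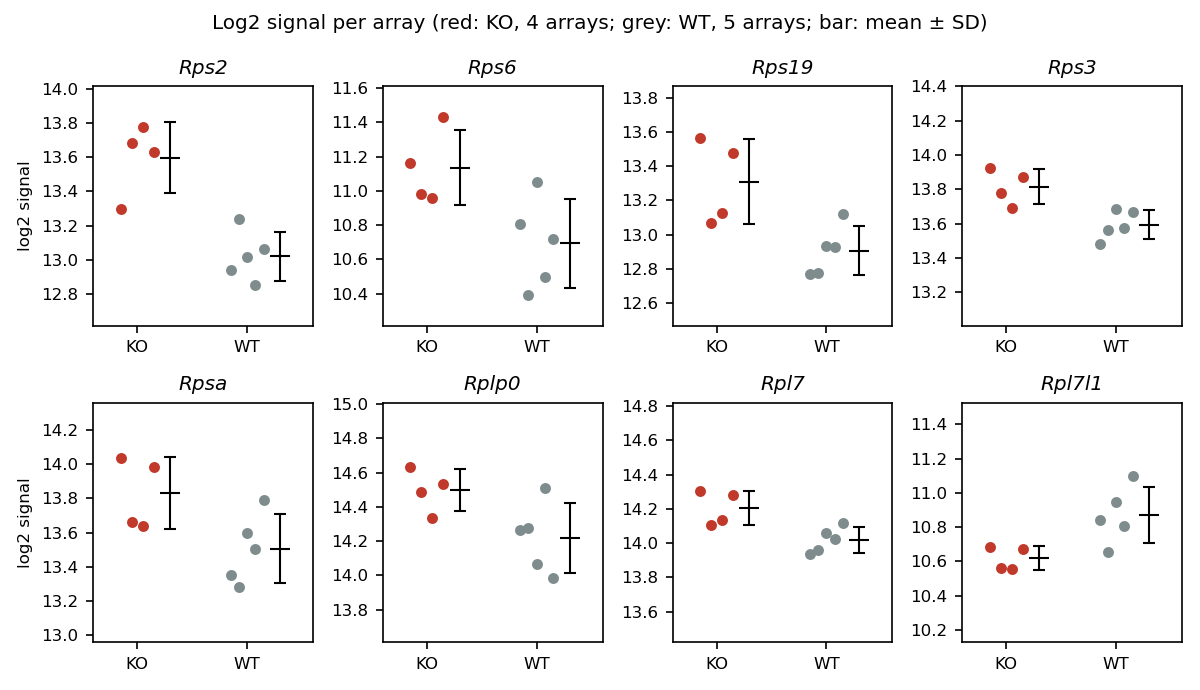
Log2 signal of 8 RP genes on each array, KO (red, 4 arrays) to the left of WT (grey, 5 arrays), with the mean ± SD as a bar beside the points; every panel spans the same log2 range. *Rps2* and *Rps3* are the 2 genes with all KO above all WT arrays, and *Rpl7l1* is the only one of the 8 with a lower KO mean.

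Paralogs of RP genes are known for tissue-restricted or stress-related expression, and none passed the adjusted test; no paralog was tested against its partner. *Rpl7l1*, a relative of *Rpl7* with a role in ribosome assembly, was the RP gene with an unadjusted p under 0.05 in the lower direction. It had 10.69, 10.56, 10.56 and 10.67 in KO islets, against 10.84, 10.66, 10.95, 10.81 and 11.10 in WT islets. WT 2 lay within the KO range, and the difference was -0.25 (SE 0.10, limma adjusted p = 0.19). The other 2 probe sets of *Rpl7l1* gave 0.12 and 0.15, and with its probe sets averaged the difference was 0.0060. *Rpl22l1* had a difference of -0.11 (SE 0.17) and its partner *Rpl22* one of 0.19 (SE 0.14). *Rps27l*, a target of p53, had 0.13 (SE 0.17) and *Rps27* 0.37 (SE 0.40). The mean log2 signal was 9.20 for *Rps27* and 12.86 for *Rps27l*, and how well the dimmer probe set reads *Rps27* was not examined. *Rps4l* had 0.21 (SE 0.13) and *Rps4x* 0.12 (SE 0.078). The lowest adjusted p among these 6 genes was 0.41, that of *Rps4l* (limma). *Rps19bp1*, which encodes a binding partner of RPS19 and not a part of the ribosome, had 0.16 (SE 0.19).

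*Rpl39l*, *Rpl3l* and *Rps16* fell below the filter. *Rpl39l*, a paralog known mainly from testis, had log2 signals of 2.29 to 5.77 in KO and 5.08 to 5.96 in WT islets, and *Rpl3l*, known mainly from muscle, had 1.85 to 5.49 in KO and 3.13 to 6.05 in WT islets. The single-gene probe set of *Rps16* gave 0.60 to 2.57 in KO and 0 to 2.79 in WT islets, although every ribosome holds its product, so the level of the gene was not read from this probe set. Of the paralog pairs considered, *Rpl36a* and *Rpl36al*, *Rpl10* and *Rpl10l*, and *Rpl3* beside *Rpl3l* could not be compared by gene.

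The RP genes moved together from array to array, within as well as between the groups. On arrays KO 1 and KO 4, 44 of the 47 RP genes were each above their own mean over the 9 arrays, whereas 17 were on KO 2 and 14 on KO 3. On the 5 WT arrays the numbers were 2, 7, 18, 11 and 38. The median deviation of the RP genes from their means was 0.18, -0.044, -0.062 and 0.20 on the KO arrays, against -0.13, -0.14, -0.012, -0.087 and 0.11 on the WT arrays. WT 5 thus lay above 2 of the 4 KO arrays, and the groups overlapped. The median deviation of all genes ran between 0.010 and 0.066 on the KO and between -0.034 and 0.054 on the WT arrays. Without array KO 1 the median difference of the RP genes was 0.092 with 10 negative values, and without KO 4 it was 0.089 with 14 negative values, against 0.14 with 5 negative values on all 9 arrays.

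**Figure D3:**
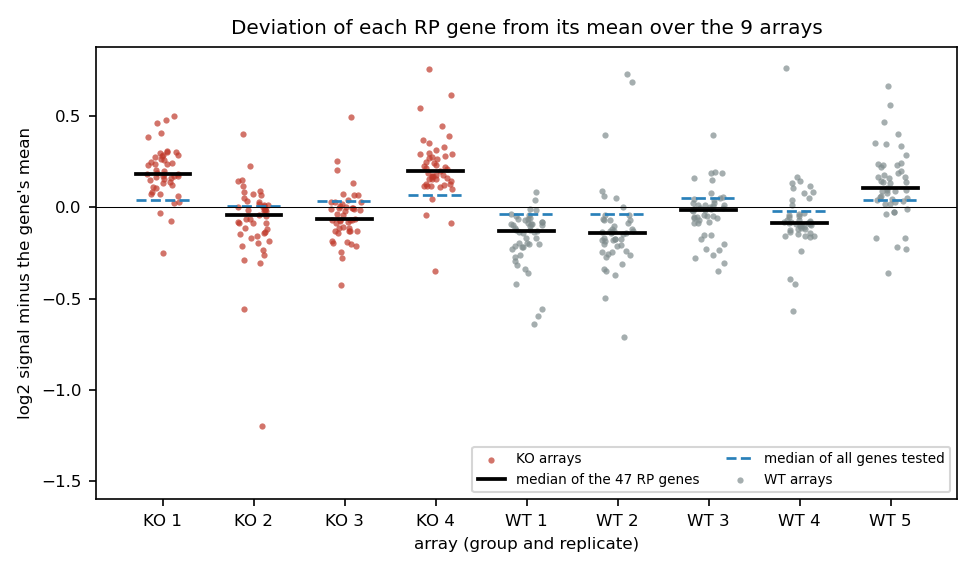
Deviation of each of the 47 RP genes from its own mean (y axis, log2) on each array, KO arrays to the left of WT arrays, with black lines for the RP median and dashed blue lines for the median of all genes tested. KO 1, KO 4 and WT 5 stand high, and KO 2 and KO 3 lie in the range of the other WT arrays.

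The markers of other cells moved with these values in part. The stromal mean was 10.2, 9.92, 9.67 and 10.1 on the KO arrays, against 8.48, 8.42, 9.13, 8.70 and 9.30 on the WT arrays, so that within each group the 2 arrays with the highest RP median in KO islets, and the 1 in WT islets, also had the highest stromal mean. When the stromal mean was added to the model, the median RP difference was -0.23, and that of all genes was -0.073. Of the 47 RP genes, 42 were negative and 0 were called (1 higher and 6 lower at an unadjusted p under 0.05). Over all 13644 genes tested, this model called 1 higher and 1 lower, against 501 and 359 without the stromal mean. The absence of RP calls in it is thus shared by nearly all genes. Its unadjusted share over all genes is not given here. The stromal mean separates the groups completely, and the median SE of the RP genes was 0.20 with it and 0.12 without it, so the share of group and of stromal content cannot be told apart. The alpha and delta cell means moved in the same way, and several others did not. Within KO islets the endothelial mean was lowest on KO 1 (9.75) and highest on KO 2 (10.05). The Schwann cell mean was lowest on KO 1 (7.04), and the macrophage mean was highest on KO 1 and KO 3 (9.05 and 9.03). The alpha cell mean was 12.64, 12.43, 12.53 and 12.59 on the KO arrays (5 of 6 listed markers tested). On the WT arrays it was 12.27, 12.29, 12.46, 12.38 and 12.62. Within the groups it lay highest on KO 1 and KO 4 and on WT 5. The groups overlapped, with WT 5 above KO 2, KO 3 and KO 4. The delta cell mean was 13.17, 12.77, 12.93 and 13.13 on the KO arrays, against 12.45, 12.38, 12.60, 12.61 and 12.70 on the WT arrays (3 of 4 listed markers tested), so it too lay highest on KO 1 and KO 4 and on WT 5 within the groups. Its markers differed among themselves. *Hhex* had a difference of 0.84 and *Rbp4* one of 0.56 (limma adjusted p = 0.016 and 0.064). *Sst*, the hormone gene of delta cells, had -0.039 (limma adjusted p = 0.85). Delta cell, ductal and endothelial means also lay higher on every KO than on every WT array, at 8.60 to 9.53 in KO and 8.33 to 8.41 in WT islets for ductal and 9.75 to 10.05 in KO and 9.39 to 9.60 in WT islets for endothelial markers, and the beta cell mean lay lower on every KO array. Marker by marker, 5 of 5 ductal, 13 of 14 endothelial and 3 of 5 alpha cell genes had a positive difference. Past the adjusted limma threshold were 1, 0 and 0 of them (background 3.67% higher). The part of these markers in the RP values was not tested. With the acinar mean as a covariate the RP median was 0.14. Lymphocyte markers had a mean of 8.13 on KO 4 and 6.16 to 6.80 on the other 8 arrays (4 of 9 listed markers tested), and their part in the result was not tested.

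**Figure D4:**
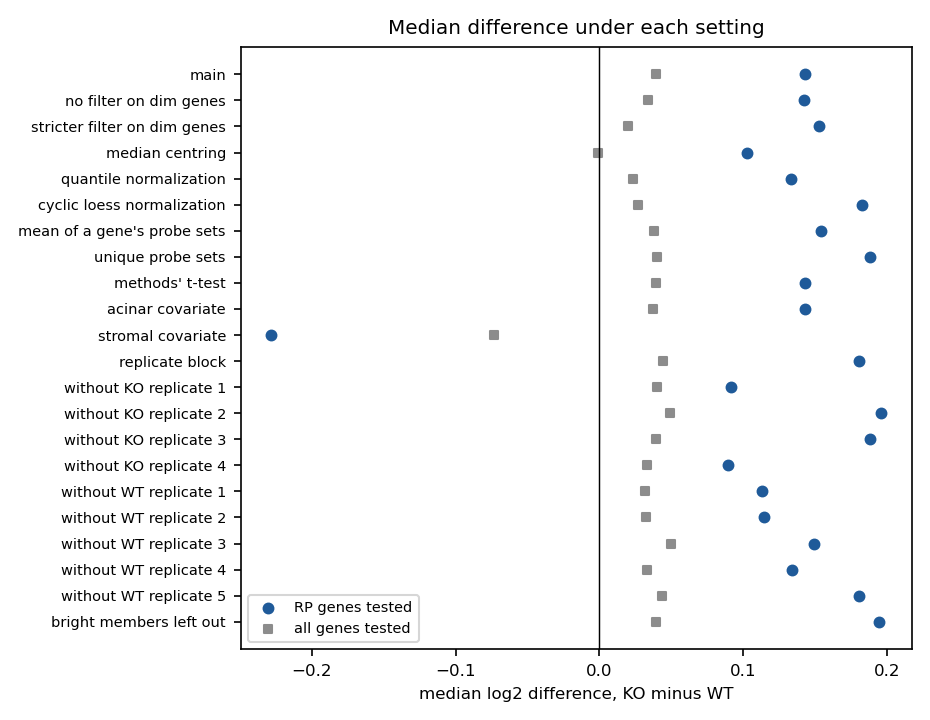
Median log2 difference (KO minus WT, x axis) of the RP genes tested (blue circles) and of all genes tested (grey squares) under each way of processing the values. The RP median lies between 0.089 and 0.20 in every row except that of the stromal covariate, at -0.23.

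Different probe sets of 1 RP gene gave differences of unlike size. For the 21 RP genes with several single-gene probe sets in the fit over probe sets, 15 had the same sign in all of them. In 15 of the 21 the other probe sets had a larger median difference than the brightest one, which stands for the gene, and the medians over the 21 were 0.18 for the others and 0.12 for the brightest. *Rps7*, a protein of the small subunit that also binds MDM2, had 0.12 on its brightest probe set and 0.79 on the other, the lowest adjusted p of any single-gene RP probe set (limma adjusted p = 0.054). *Rpl22* had 0.19 on the brightest and 0.46 and 0.49 on the others. These values were singled out after they were seen.

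The probe sets that the annotation shares between an RP gene and another gene include all those of the RP genes that could not be named alone. Of 107 such probe sets tested, 100 had a positive difference (background 52.7% of all probe sets) and the median was 0.21. At an unadjusted p under 0.05, 27 of them (25.2%) were higher and 0 lower, against a background of 8.22% higher and 6.53% lower. After adjustment 0 were called (0 by the methods' t-test). The 98 single-gene RP probe sets had a median of 0.16, with 88 positive and 0 called (11 higher, 11.2%, and 1 lower at an unadjusted p under 0.05, 0 by the methods' t-test after adjustment). All other probe sets had a median of 0.019. In that fit over 33777 probe sets, 0.79% were called higher and 0.734% lower, a stricter background than among genes. The *Rps2* probe set had a limma adjusted p of 0.080 there.

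RP genes with and without a TOP tract at the annotated start are set side by side as a description, with no test. The 8 genes with it had a median difference of 0.20, between 0.048 and 0.44, all positive, and the 33 without it 0.14, between -0.69 and 0.57, with 29 positive. The 2 ranges overlap, and *Rps2*, with the largest difference, is among the 33. *Rps6* had a difference of 0.44, *Rps18* 0.27, *Rpl35* 0.25 and *Rplp2* 0.15.

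Other RNAs known to carry a TOP tract, most of which encode translation factors or other proteins of translation, had a median difference of 0.22 over 22 genes tested, and 20 were positive. Of these, 2 were called higher (background 3.67%) and 0 lower, and the methods' t-test called 3 higher. At an unadjusted p under 0.05, 10 of the 22 (45.5%) were higher and 0 lower, against 13.3% and 8.43% of all genes tested. Among these 10 are *Gas5*, *Snhg1* and *Snhg12*, whose RNAs do not encode a protein. Their differences were 0.52, 0.48 and 0.54, the largest of the list after that of *Vim*. *Eif3f*, a subunit of the initiation factor that binds the small subunit, had 12.65, 12.61, 12.55 and 12.52 in KO islets, against 12.11, 12.16, 12.42, 12.16 and 12.27 in WT islets. Every KO array lay above every WT array (log2 difference 0.36, SE 0.089, limma adjusted p = 0.048). With 1 array left out the call held only without WT 3; otherwise the adjusted p was 0.069 to 0.14. Over all alternatives it held in 5 of 19, and with the stromal mean in the model the difference was 0.099 (adjusted p = 0.84). *Vim* encodes the intermediate filament vimentin and is also in the list of stromal markers, which were higher in KO islets. Its difference was 1.16 (SE 0.28, limma adjusted p = 0.046). The call held without WT 3 or WT 5 and was lost without any other array, at an adjusted p of 0.057 to 0.12. Over all alternatives it held in 5 of 20, and with the stromal mean, of which *Vim* is a part, in the model the difference was -0.35 (limma adjusted p = 0.62). The model with the stromal mean called 1 gene higher and 1 lower of all 13644. A call lost in it does not single out *Eif3f* or *Vim*. *Fau*, which encodes the small subunit protein RPS30 fused to a ubiquitin-like protein and is outside the naming rule, had a difference of 0.26 (SE 0.13, limma adjusted p = 0.27). *Rack1* was not analysed by name.

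The factors that build ribosomes were close to the median of all genes. For the lists of this paragraph the limma background was 3.67% higher and 2.63% lower after adjustment, and 13.3% and 8.43% at an unadjusted p under 0.05. That of the methods' t-test after adjustment was 2.65% and 2.6%. Of 53 ribosome biogenesis genes tested, 0 were called in either direction (5 higher, 9.43%, and 2 lower at an unadjusted p under 0.05, 0 by the methods' t-test after adjustment), with a median difference of 0.043. *Npm1*, the nucleolar chaperone nucleophosmin, which is also among the other TOP mRNAs, had the lowest p of them, with a difference of 0.44 (SE 0.11, limma adjusted p = 0.056). The 17 genes of RNA polymerase I and its factors, which transcribe ribosomal RNA genes, had a median of 0.075 and 0 calls (0 at an unadjusted p under 0.05, 0 by the methods' t-test after adjustment). Among 17 genes listed for the mTORC1 arm that controls translation, *Rptor* was the only one called by limma, and the median was -0.079. At an unadjusted p under 0.05, 1 was higher and 2 were lower, and the methods' t-test called 1 higher after adjustment. The 1 higher in limma was *Rps6ka3* (difference 0.20, SE 0.071), whose product is a kinase activated by ERK and not by mTORC1. *Eif4ebp1*, the translation repressor that mTORC1 phosphorylates, had a difference of -0.38 (SE 0.13, limma adjusted p = 0.13).

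Unassembled RP proteins are known to stabilise p53 by binding MDM2, so p53 targets were counted as well. Of 13 tested, 1 was called higher and 0 lower (background 3.67% and 2.63%), and the median difference was 0.051. At an unadjusted p under 0.05, 2 (15.4%) were higher and 1 was lower, near the background of 13.3% and 8.43%. The 1 was *Cdkn1a*, which encodes the cell cycle inhibitor p21. It had 11.22, 11.01, 11.13 and 11.33 in KO islets, against 9.96, 10.30, 10.67, 10.32 and 10.31 in WT islets, with no overlap (log2 difference 0.86, SE 0.14, limma adjusted p = 0.0097). The call held without any 1 array, at a limma adjusted p of 0.0074 to 0.037. It was lost with the stromal mean in the model (difference 0.44, limma adjusted p = 0.52). That model called 1 gene higher and 1 lower of all 13644, so the lost call does not single out *Cdkn1a*. The other 12 did not pass the adjusted test.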

How the data were processed

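Islet RNA was measured on 9 arrays (4 KO, 5 WT) with biotin-labelled cRNA from a 3′ in vitro transcription kit. The authors deposited log2 signals, 1 per probe set and array. The methods name Genespring. How probes were summarised and scaled is not given in the sources used here. On every array, the trimmed mean of the linear signal was 497.1 to 497.7, and array medians were 6.85 to 7.05. Of 45037 probe sets, 34945 name 1 gene, 932 several and 9160 none in GEO's platform annotation. The symbols of all 47 members tested matched RefSeq. Each gene was represented by its single-gene probe set with the highest mean, the dimmest 0.25 of genes were left out, and KO was compared with WT in limma 3.58.1 (R 4.3.3; lmFit, eBayes, two-sided, no covariate) with Benjamini-Hochberg adjustment over 13644 genes and a threshold of 0.05. The methods' t-test was run as an alternative. The limma and t-test steps were tested on simulated data. Scan dates were not used, no batches were examined, and no 2 arrays were identical. The number of arrays limits the precision. Groups and replicate numbers came from the sample titles.

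The RP genes, the other gene lists and the tests were chosen with earlier results of these data known. Genes named were *Rptor*, RP genes called, the 3 largest differences in each direction, non-overlapping RP genes, *Rpl7*, *Rpl26*, *Rps6*, *Rpsa*, the stalk genes, paralog pairs, *Fau*, *Rack1*, RP genes below the filter and up to 4 called genes of each list. *Rps7*, *Rpl35*, *Rps18*, *Rps14*, *Rps9*, *Rps19bp1*, *Npm1*, *Eif4ebp1*, *Gas5*, *Snhg1*, *Snhg12*, *Rps6ka3*, *Hhex* and *Rbp4* were named after their values were seen. Alternatives changed the filter, the scaling between arrays, the probe sets used, the test, a marker covariate or the replicate block, or left out 1 array. Leaving out bright members and the fit over probe sets were chosen after seeing the data.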

Additional observations from a re-analysis of the deposited data

How the results depend on the processing

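The number of RP genes called lower stayed at 0 in every alternative tried. The number called higher, 1 with the main settings, was 0 with no filter on dim genes, with the mean of a gene's probe sets, with unique probe sets, with the stromal covariate and with the replicate block, 2 (*Rps2* and *Rps19*) with cyclic loess, and 0 to 1 with 1 array left out. The difference of *Rps2* kept its sign in all 19 alternatives that could be run for it and was called in 9. The median difference of the RP genes, 0.14, was -0.23 with the stromal covariate and 0.089 to 0.20 in all others. Negative differences numbered 10 with median centring, 42 with the stromal covariate, 3 with the replicate block, 3 of 28 with bright members left out, and 3 to 14 with 1 array left out. Under the other scalings the sign of 40 of the 47 genes was kept. The difference of *Rptor* lost its call with no filter (-0.72, adjusted p = 0.079), the methods' t-test (-0.72, adjusted p = 0.067), the mean of its probe sets (-0.16), the stromal covariate (-0.41) and the replicate block (-0.76), and ran between -0.87 and -0.63 with 1 array left out. Signs turned with the stromal covariate for *Rps19* (-0.12), *Rps6* (-0.049), *Rps3* (-0.057), *Rpl7* (-0.066), *Rplp2* (-0.22), *Rpsa* (-0.33), *Rpl22* (-0.40), *Rps27* (-0.051), *Rps27l* (-0.29), *Rps4x* (-0.063), *Rps4l* (-0.21) and *Vim* (-0.35, itself among the stromal markers), with the mean of probe sets for *Rpl7l1* (0.0060) and *Rps4x* (-0.32), with the replicate block for *Rpl22l1* (0.021), and with 1 array left out for *Rpl22l1* (without WT 5; range -0.18 to 0.021) and *Rps27l* (without KO 4; range -0.024 to 0.24). The causes were not tested. The labels link same-numbered KO and WT arrays by the number alone, so whether they were handled as pairs is not known. Correlations of their deviations were -0.040, 0.088, 0.12 and -0.027, and 2 of 4 KO arrays correlated best with their own number. Under the block 33 genes were called higher and 28 lower, and with the stromal covariate 1 and 1, against 501 and 359 with the main settings. Calls lost under these 2 models, that of *Rptor* among them, are thus shared by most called genes. *Cdkn1a* lost its call under the block too (limma adjusted p = 0.082).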
